A study of Rattus norvegicus with 8 samples.

Results

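The glycosyltransferases and sulfotransferases described here are the enzymes that build and sulfate the sugar chains of glycoproteins, proteoglycans and glycolipids. They were taken by symbol, ignoring case and the endings of predicted genes, as every probe whose symbol began with Chst, Hs2st, Hs3st, Hs6st, Ndst, Galnt, B3gal, B4gal, B3gnt, St3gal, St6gal, St8sia, Fut, Mgat, Ext, A3galt or A4galt with the numbers of those families. The rule found 92 probes with 89 symbols among the 22523 probes and 21558 symbols of the array, and it used no measured value. Total RNA of rat incisor enamel organs was hybridized to RatRef-12 v1 BeadChip arrays of Illumina, on which many beads carry the same probe. The animals were 4 male rats at the age of 4 weeks, Wistar by the labels and Wistar Hannover by the study's methods, for which the labels name no allele and no treatment. The secretory-stage and the maturation-stage enamel organ of each rat were taken, so that 4 arrays were compared with 4. Each sample was a dissected piece of a tissue with several cell types, in which fewer cells of a type and less RNA per cell cannot be told apart.

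Glycosyltransferases work mostly in the Golgi, where each family adds one kind of sugar in one linkage to a growing chain, and carbohydrate sulfotransferases then pass sulfate from the donor PAPS to chosen positions of the sugars. In the secretory stage ameloblasts export the enamel matrix, of which enamelin and ameloblastin are glycoproteins. In the maturation stage they take up the degraded matrix and move ions, and the papillary layer beside them carries blood vessels.

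All values below are normalized log2 signals. Log2 fold changes give the maturation stage against the secretory stage, with the standard error (SE) from limma. Called probes are those with a Benjamini-Hochberg adjusted p below 0.05 over the whole array and a change of at least 1.8-fold. A probe was taken as detected on an array at a detection p below 0.05. Levels of different probes are not compared.

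The array signals summed to between 11881691 and 12046793 in the secretory stage and between 13355073 and 16122665 in the maturation stage, and 10667 to 10941 and 11164 to 11450 probes were detected. The number of arrays limits the precision. In 1 label field maturation samples 2, 3 and 4 are given as secretory, against their other labels, but 8 of 8 arrays correlated more with each array of their own stage than with any of the other (at least 0.990 within and at most 0.949 between stages). Klk4, the protease of the maturation stage, rose by 7.57 in the probe detected in both stages and Mmp20, the protease of the secretory stage, fell by 4.03 on the log2 scale, both called. The enamel matrix gene Enam stood at 11.98, 12.03, 11.94 and 11.98 in the secretory stage and at 9.08, 5.17, 5.53 and 8.22 in the maturation stage, so that maturation replicates 1 and 4 kept more of this secretory transcript than replicates 2 and 3. Amelx and Ambn, with log2 fold changes of -0.53 and -0.36, were not called. Of 15 macrophage and leukocyte marker genes 11 were called higher and none lower in the maturation stage; the summed linear signal of the list was 4973 to 6141 in the secretory and 12899 to 16549 in the maturation stage. For 4 osteoclast markers the sum was 5880 to 8397 and 14603 to 18782, with Calcr undetected on all arrays. The part of these cells in the values below was not tested.

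Of the 92 probes, 5 were called higher and 5 lower in the maturation stage. These 10 probes are 10.9% of the members, against 7.75% called among all probes (4.6% higher and 3.15% lower), so the share of members called was close to the background. St3gal6, B3gnt8, A3galt2, B4galt6 and Galnt10 were higher, and Chst1, St3gal4, the probe named Galnt12_predicted, Chst10 and B3gnt7 were lower. Of the members, 54 were detected on all arrays of at least 1 stage, 24 were undetected on all 8 arrays and 14 lay in between. The 10 called are 18.5% of the 54 detected members, against 16.5% called among all probes so detected. At an adjusted p below 0.05 and any fold, 33 members passed, 12 higher and 21 lower, which is 35.9% of the members over a background of 26.9% of all probes. With median scaling of the arrays, 20 higher and 15 lower members passed on p, and several of the smaller negative differences below no longer did. Between 26 and 34 members passed on p with an array left out, and 24 with the Student test that the methods name. The stages did not overlap for 33 members (35.9%), where they did not for 27.7% of all probes. The median log2 fold change was -0.04 over the members and -0.01 over all probes. Among probes detected on all arrays of at least 1 stage, it was -0.18 for the members and -0.04 for all probes.

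**Figure D1:**
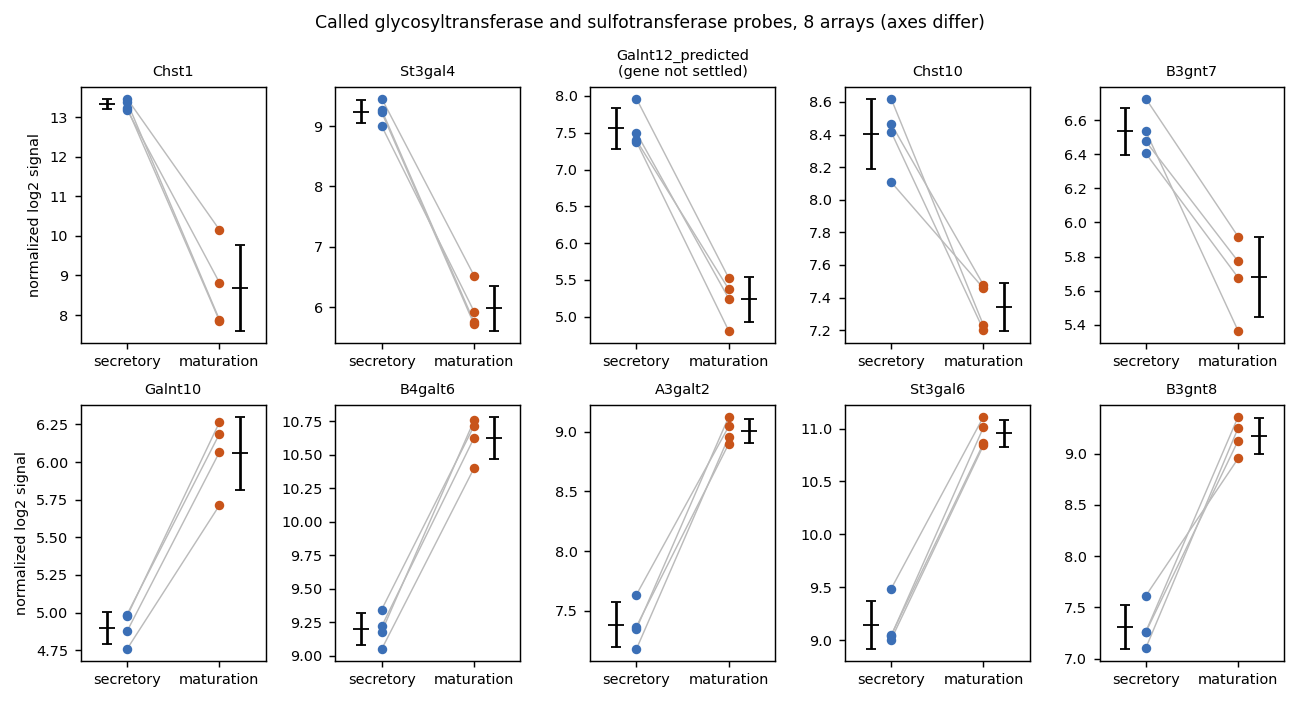
Normalized log2 signal of the 10 called members in the secretory stage (blue) and the maturation stage (orange), 1 point an array, with grey lines joining the samples of a rat and black bars for the mean and SD of 4 arrays; the vertical axes differ and do not start at 0. In each panel the stages do not overlap, and the points of Chst1 in the maturation stage are spread from 7.86 to 10.15.

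Each called member moved the same way in all 4 rats, and its stages did not overlap. A two-sided exact permutation test gave p = 0.0286 for each, the smallest that 4 against 4 unpaired arrays allow. It exchanged arrays freely, without the pairing by rat. These members had been called on the same arrays, so this p only restates that the stages did not overlap. The fall of Chst1 was 25.01-fold and that of St3gal4 9.55-fold, while the rises among members detected in both stages lay between 2.69-fold and 3.64-fold.

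The carbohydrate sulfotransferases outside the heparan sulfate and the chondroitin and dermatan families were 6 genes with 7 probes. Of these, 4 probes were detected, those of Chst1, Chst10 and Chst8, and all 4 had negative log2 fold changes. Chst1, which puts sulfate on galactose of keratan sulfate and related chains, is placed on chromosome 3 by the array. Its signals were 13.47, 13.39, 13.24 and 13.19 in the secretory stage and 10.15, 7.88, 7.86 and 8.82 in the maturation stage. The secretory arrays lay close together, and maturation replicates 1 and 4, the same arrays that kept more Enam, lay above replicates 2 and 3. The log2 fold change was -4.64 (SE 0.441, adjusted p = 3.85e-05 from limma), and it was -5.16 without maturation replicate 1.

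Chst10, which sulfates the glucuronic acid of the HNK-1 epitope (chromosome 9), had signals of 8.11, 8.62, 8.47 and 8.42 in the secretory stage and 7.46, 7.23, 7.48 and 7.20 in the maturation stage. The highest maturation value lay well below the lowest secretory one. Its log2 fold change was -1.06 (SE 0.115, adjusted p = 8.91e-05 from limma), and it fell short of 1.8-fold with median scaling of the arrays (-0.71) and without background correction (-0.76).

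Chst8, which sulfates terminal N-acetylgalactosamine on N-glycans such as those of pituitary hormones, has 2 probes, neither of them called. Their log2 fold changes were -0.68 (adjusted p = 5.18e-04 from limma) and -0.52 (adjusted p = 0.0440), the second at -0.18 with median scaling (adjusted p = 0.439). The stages did not overlap for the first probe and did for the second. Chst2, a sulfotransferase of N-acetylglucosamine, was detected on 3 arrays of each stage, at -0.08. Chst4 and Chst9 were undetected on all 8 arrays.

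Among the sialyltransferases, which cap chains with sialic acid, a pair of enzymes that transfer it in the same linkage moved in opposite directions. St3gal4 and St3gal6 both add sialic acid in alpha-2,3 linkage to galactose at the end of N-acetyllactosamine chains. St3gal4 (chromosome 8) had signals of 9.46, 9.26, 9.001 and 9.23 in the secretory stage and 6.52, 5.76, 5.93 and 5.72 in the maturation stage. St3gal6 (chromosome 11) had signals of 9.05, 9.04, 9.01 and 9.49 in the secretory stage and 10.86, 11.01, 10.84 and 11.11 in the maturation stage. For both genes a wide gap separated the stages on every array.

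The log2 fold change of St3gal4 was -3.26 (SE 0.174, 95% interval -3.65 to -2.86, adjusted p = 9.67e-07 from limma). That of St3gal6 was 1.81 (SE 0.115, 95% interval 1.55 to 2.07, adjusted p = 2.88e-06). Neither interval came near the other or near 0, and the values stayed, whichever array was left out, between -3.42 and -3.15 and between 1.76 and 1.92.

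The sequence before the transcript start of both genes is shown because their transcripts moved apart between the stages. It was read from a RefSeq promoter table of the GRCr8 assembly, which matched 75 of the 92 probes, and each run holds 250 bases up to the base before the start, on the strand of the gene. Capitals mark the CCAAT box (CCAAT, or ATTGG on the other strand), and the GC box (GGGCGG or CCGCCC) and the TATA box (TATAAA or TTTATA) were searched on both strands too. The table gives 3 starts of St3gal4, and the arrays do not tell which one the transcripts used; the window farthest upstream (chr8:41723159-41723408, minus strand) and the next one (chr8:41722348-41722597, minus strand) are printed, with the single window of St3gal6 (chr11:55546538-55546787, plus strand).
St3gal4 first start: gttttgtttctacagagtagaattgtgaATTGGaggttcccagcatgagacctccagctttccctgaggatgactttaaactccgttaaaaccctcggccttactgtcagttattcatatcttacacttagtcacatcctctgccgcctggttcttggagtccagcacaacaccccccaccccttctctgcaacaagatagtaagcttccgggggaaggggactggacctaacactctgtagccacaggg
St3gal4 second start: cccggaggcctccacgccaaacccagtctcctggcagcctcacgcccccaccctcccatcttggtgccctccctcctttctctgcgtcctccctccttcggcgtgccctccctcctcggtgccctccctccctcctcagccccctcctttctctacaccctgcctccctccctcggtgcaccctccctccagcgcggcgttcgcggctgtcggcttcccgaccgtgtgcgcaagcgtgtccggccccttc
St3gal6: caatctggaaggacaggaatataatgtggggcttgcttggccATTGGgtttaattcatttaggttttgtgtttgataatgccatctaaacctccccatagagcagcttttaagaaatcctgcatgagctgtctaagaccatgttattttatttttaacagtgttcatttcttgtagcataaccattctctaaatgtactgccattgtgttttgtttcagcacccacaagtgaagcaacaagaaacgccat
The window of the second St3gal4 start held 70.4% G and C and that of the first 49.6%, against 38.4% in St3gal6 and a median of 51.2% over 33469 promoter windows of the same length. CCAAT occurred once in the first St3gal4 window, 222 bases before the start, and once in that of St3gal6, 208 bases before it, both on the opposite strand, and 34.02% of all windows held it. The third St3gal4 window held it 5 times, at 40.4% G and C. Neither the GC box, held by 30.5% of all windows, nor the TATA box, held by 12.9%, was found in the windows of either gene. A match is a description of the letters and no evidence of use.

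Of the other sialyltransferases, 8 probes were detected and uncalled, with log2 fold changes between -0.79 and 0.36. St6galnac3, which adds sialic acid to N-acetylgalactosamine of glycolipids and short O-glycans, came nearest to a call, with signals of 8.09, 8.65, 8.63 and 8.45 in the secretory and 7.58, 7.70, 7.72 and 7.65 in the maturation stage. All maturation values lay below the secretory ones, and the log2 fold change of -0.79 (adjusted p = 6.63e-04 from limma) fell short of 1.8-fold, which it passed without secretory replicate 1 (-0.92). St6gal1, the enzyme of alpha-2,6-sialylated N-glycans, was at -0.38 (adjusted p = 0.0109), but at -0.08 with median scaling (adjusted p = 0.425). St3gal3, another enzyme of N-glycan ends, had a log2 fold change of 0.19 with a 95% interval of 0.01 to 0.36, and of 0.36 with median scaling (adjusted p = 0.00489). St8sia4, a polysialyltransferase with 2 probes, stood at 0.10 and 0.22, and the polysialyltransferase St8sia2 was undetected on all 8 arrays.

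**Figure D2:**
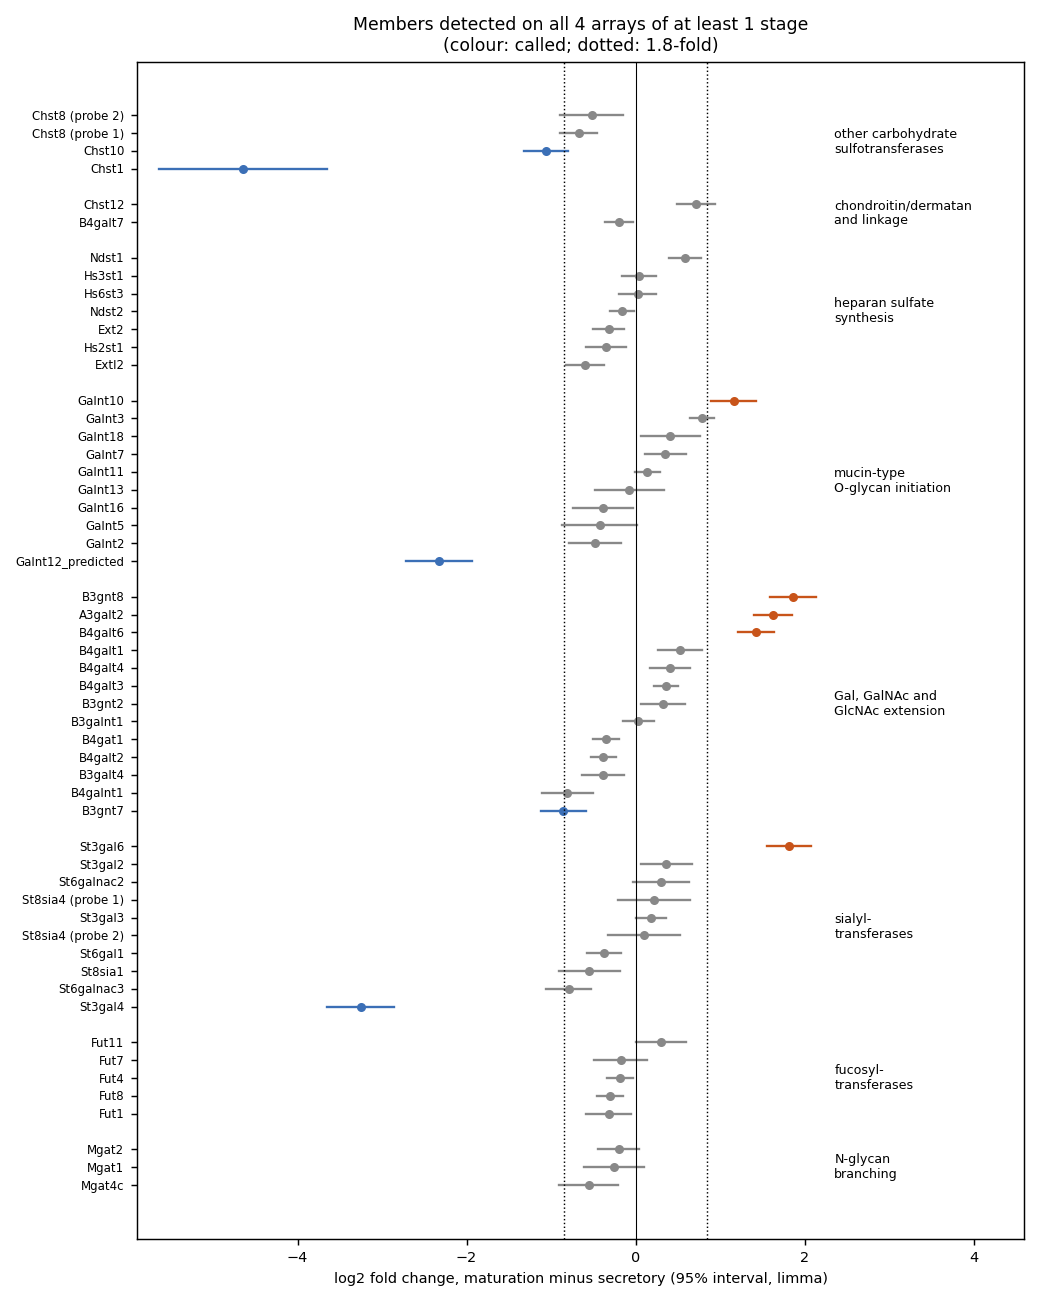
Log2 fold change (maturation minus secretory) with its 95% interval from limma for the 54 members detected on all 4 arrays of at least 1 stage, grouped by family, with called members in colour and dotted lines at 1.8-fold; for Galnt10, undetected in the secretory stage, the point is the fitted value. Chst1 at -4.64 and St3gal4 at -3.26 lie farthest to the left, B3gnt8 at 1.86 and St3gal6 at 1.81 farthest to the right, and 44 members are uncalled.

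The polypeptide N-acetylgalactosaminyltransferases, which start mucin-type O-glycans on serine and threonine, had 14 probes, 10 of them detected. Galnt10 (chromosome 10), an enzyme that prefers peptides already carrying a sugar, was undetected on all secretory arrays and detected on all 4 maturation arrays. Its signals were 4.87, 4.97, 4.76 and 4.99 in the secretory stage, at the background, and 6.07, 6.26, 5.71 and 6.19 in the maturation stage. The rise was at least 2.02-fold (adjusted p = 5.78e-05 from limma), where the bound sets the maturation mean against the lowest normalized signal of a detected probe on the secretory arrays, or the signal of the probe where that was higher. It was no longer called with an offset of 50 (0.66) or without background correction (0.41).

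Galnt3, which O-glycosylates the phosphate hormone FGF23, had signals of 9.31, 9.46, 9.25 and 9.40 in the secretory stage and 10.19, 10.09, 10.13 and 10.17 in the maturation stage. The arrays of each stage lay close together and apart from the other stage. The log2 fold change of 0.79 (SE 0.0630, adjusted p = 1.27e-05 from limma) stayed below the threshold of 1.8-fold, which it passed with median scaling (1.12) and with cyclic loess (0.86).

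A probe that the array names Galnt12_predicted and places on chromosome 15 fell, but its gene is not settled, since its gene ID is not in the current gene table. Its signals were 7.96, 7.50, 7.38 and 7.40 in the secretory stage and 5.52, 5.24, 4.81 and 5.37 in the maturation stage, where it was detected on 3 arrays. The stages lay far apart, with a log2 fold change of -2.32 (SE 0.173, adjusted p = 7.80e-06 from limma). Another probe, whose gene ID is that of Galnt12 in the current table, was undetected on all 8 arrays.

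The other detected members of this family had log2 fold changes between -0.48 and 0.41, with Galnt2, a broadly expressed initiator, at -0.48 (adjusted p = 0.0273, and 0.222 with median scaling) and Galnt7, which acts on peptides already glycosylated, at 0.35 (adjusted p = 0.0368, detected on 1 secretory array). Galnt7 did not pass on p in 4 alternatives, with an adjusted p between 0.0743 (normexp without negative controls) and 0.0941 (the Student test) and of 0.0841 with the rat as a block. Among the uncalled members of this family detected on all 8 arrays the narrowest intervals were those of Galnt3 and of Galnt11 at 0.14 (95% interval -0.01 to 0.28), which stood at 0.47 with median scaling (adjusted p = 0.00103).

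The enzymes that extend chains with galactose, N-acetylgalactosamine or N-acetylglucosamine were the largest family, with 20 probes, 13 of them detected, 3 called higher and 1 lower. B3gnt8, which extends polylactosamine on N-glycans (chromosome 1, named B3galt7_predicted on the array), had signals of 7.61, 7.26, 7.10 and 7.26 in the secretory stage and 8.95, 9.36, 9.25 and 9.13 in the maturation stage. All maturation values lay over 1 log2 unit above the secretory ones. The log2 fold change was 1.86 (SE 0.121, adjusted p = 3.33e-06 from limma), or 3.64-fold.

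B3gnt7, which adds N-acetylglucosamine to keratan sulfate chains (chromosome 9), moved the other way. It had signals of 6.54, 6.41, 6.48 and 6.73 in the secretory stage and 5.36, 5.68, 5.77 and 5.92 in the maturation stage. The stages did not overlap, but the log2 fold change of -0.86 (SE 0.119, adjusted p = 4.61e-04 from limma) lay at the fold threshold, and it fell short without maturation replicate 1 (-0.74) or secretory replicate 4 (-0.80). It also fell short in 5 of 9 processing alternatives, at -0.69 with normexp without negative controls, -0.37 without background correction, -0.57 with an offset of 50, -0.81 with cyclic loess and -0.62 with median scaling.

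Among the beta-1,4-galactosyltransferases, B4galt1, the lactose synthase enzyme that builds N-acetyllactosamine, stood at 0.53 (adjusted p = 0.00731 from limma), B4galt3 at 0.36 (adjusted p = 0.00224) and B4galt4, an enzyme of sulfated keratan sulfate chains, at 0.41 (adjusted p = 0.0161, and 0.0540 with the Student test). B4galt2 went the other way, at -0.38 (adjusted p = 0.00162). B4gat1, which acts on the matriglycan of dystroglycan, was at -0.35 (adjusted p = 0.00294). It is not a galactosyltransferase and was placed in this family by its array name, B3gnt6_predicted. These differences were below 1.8-fold and passed on p alone, but with median scaling B4galt2 was at -0.14 (adjusted p = 0.178) and B4gat1 at -0.02 (adjusted p = 0.788). B3gnt2, a polylactosamine synthase, was at 0.32 (adjusted p = 0.0701), and at 0.66 with median scaling (adjusted p = 0.00470).

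Other enzymes of this family act on glycolipids. B4galt6 makes lactosylceramide, the root of most glycosphingolipids (chromosome 18), and had signals of 9.35, 9.22, 9.05 and 9.18 in the secretory stage and 10.72, 10.63, 10.40 and 10.76 in the maturation stage. A3galt2, which makes isoglobotrihexosylceramide from lactosylceramide (chromosome 5), had signals of 7.18, 7.37, 7.63 and 7.35 in the secretory stage and 8.96, 8.90, 9.05 and 9.13 in the maturation stage. Both genes were higher on every maturation array than on any secretory array.

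Their log2 fold changes were 1.43 (SE 0.0934, adjusted p = 3.40e-06 from limma) for B4galt6 and 1.62 (SE 0.0978, adjusted p = 2.05e-06) for A3galt2. In the ganglioside branch that also starts from lactosylceramide, St8sia1, B4galnt1 and B3galt4 had negative log2 fold changes, while St3gal2, which caps gangliosides and O-glycans, stood at 0.36 (adjusted p = 0.0808), and at 0.69 with median scaling (adjusted p = 0.00615). St8sia1, which makes the ganglioside GD3, had signals of 5.86, 5.94, 5.21 and 5.33 in the secretory and 5.05, 4.89, 5.14 and 5.04 in the maturation stage, a log2 fold change of -0.55 (adjusted p = 0.0308), with rat 3 at -0.06. Its adjusted p was 0.0565 with an offset of 50 and 0.101 with the Student test. The maturation signals of St8sia1 lay near the lowest signal of any detected probe on those arrays, 4.93 to 4.98.

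B4galnt1, which makes GM2 and GD2, had signals of 7.85, 8.27, 8.49 and 7.91 in the secretory stage and 7.36, 7.22, 7.41 and 7.30 in the maturation stage. No maturation value reached the secretory range, and the log2 fold change of -0.81 (SE 0.136, adjusted p = 0.00144 from limma) fell just short of 1.8-fold, which it passed without secretory replicate 1 (-0.90) or 4 (-0.88). B3galt4, which makes GM1, stood at -0.39 (adjusted p = 0.0287), and at -0.15 with median scaling (adjusted p = 0.321). B3galnt1, the globoside synthase, was detected on all 8 arrays and differed by 0.03 (95% interval -0.16 to 0.21), or by 0.34 with median scaling (adjusted p = 0.00403). A4galt, which starts the globosides, was detected on 1 array.

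**Figure D3:**
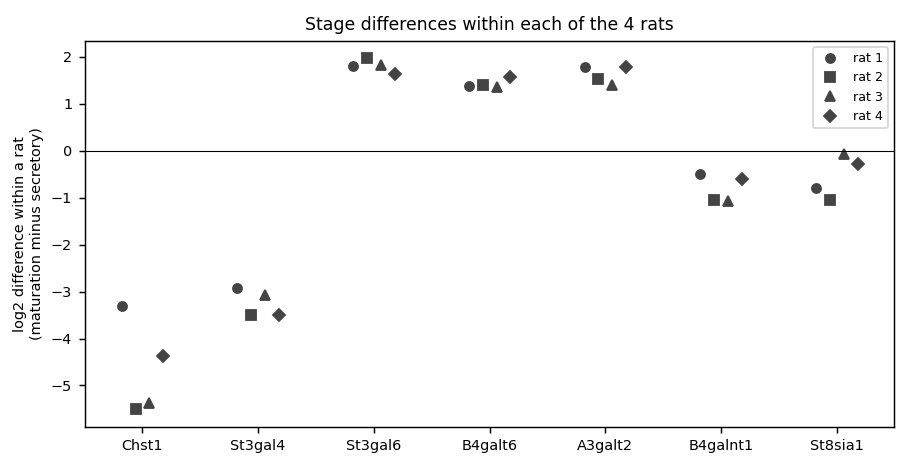
Difference of the normalized log2 signals between the maturation-stage and the secretory-stage sample of each rat, 1 symbol a rat, for 7 members. Chst1 spreads from -5.51 to -3.32 and St3gal4 from -3.51 to -2.93, B4galt6 lies between 1.35 and 1.58, and the values of St8sia1 run from -1.04 to -0.06.

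The samples of a rat deviated together from the stage means, and the within-rat differences of the called members show how even the changes were. The rises of St3gal6 lay between 1.63 and 1.97 and those of A3galt2 between 1.41 and 1.78. Chst1 varied most among the called members, and rat 1, which held the highest maturation value of Chst1, had the smallest fall.

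No member of the heparan sulfate enzymes was called. They comprised 15 genes, 7 of them detected, and form the polymerases of the chain and the sulfotransferases that modify it. Ndst1, the N-deacetylase and N-sulfotransferase that begins the modification, had signals of 5.60, 5.49, 5.60 and 5.58 in the secretory and 5.97, 6.37, 6.10 and 6.17 in the maturation stage, a log2 fold change of 0.59 (adjusted p = 5.63e-04 from limma). Extl2, a transferase that acts on the linkage region, went down by a similar size (-0.60, adjusted p = 0.00118). For both genes the stages did not overlap.

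The polymerase subunit Ext2 was at -0.32 (adjusted p = 0.0136) and the 2-O-sulfotransferase Hs2st1 at -0.35 (adjusted p = 0.0326). With median scaling neither passed, with Ext2 at -0.02 (adjusted p = 0.806) and Hs2st1 at -0.01 (adjusted p = 0.965). Ndst2 stood at -0.16 (adjusted p = 0.107), and at 0.19 with median scaling. Hs3st1, a 3-O-sulfotransferase, differed by 0.03 with a 95% interval of -0.17 to 0.24, and by 0.32 with median scaling (adjusted p = 0.0282). In all, 6 of the 15 were undetected on all 8 arrays, Hs3st2, Hs3st5 and Ndst4 among them.

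Of the 6 chondroitin and dermatan sulfotransferases and linkage galactosyltransferases found by array name, 2 were detected and none was called. Chst13, called lower, and Chst15, uncalled, belong to this family by their current symbols and are given further below. Chst12, a chondroitin 4-O-sulfotransferase, had signals of 5.03, 5.29, 5.01 and 4.88 in the secretory stage, with detection on 1 array, and 5.61, 5.71, 5.91 and 5.83 in the maturation stage. Every maturation value lay above every secretory one, and the log2 fold change was 0.71 (SE 0.0988, adjusted p = 4.40e-04 from limma). Chst11, another 4-O-sulfotransferase, was detected on 3 secretory arrays and on none of the maturation arrays, with a lower bound of 1.20-fold for its fall (adjusted p = 0.0388). The adjusted p did not pass in 5 alternatives, ranging from 0.0625 (an offset of 50) to 0.0939 (the Student test) and at 0.0719 with the rat as a block. B4galt7, which adds the first galactose of the linkage region, stood at -0.20 (95% interval -0.36 to -0.03, adjusted p = 0.0812), and at 0.16 with median scaling.

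The N-glycan branching enzymes, with 7 genes, and the fucosyltransferases, with 7 genes and 8 probes, held no call either. Mgat1, which starts complex N-glycans, and Mgat2, which follows it, were at -0.26 (adjusted p = 0.319 from limma) and -0.20 (adjusted p = 0.244). Mgat4c, detected on 2 maturation arrays, was at -0.55 (adjusted p = 0.0243, but 0.0511 with the rat as a block and 0.0861 with the Student test). Mgat3, Mgat4a, Mgat5 and Mgat5b were undetected on at least 7 of the arrays.

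Fut8, the enzyme of core fucose on N-glycans, had signals of 9.10, 9.26, 9.19 and 9.03 in the secretory and 8.89, 8.86, 8.88 and 8.75 in the maturation stage. The stages did not overlap, and the log2 fold change was -0.30 (adjusted p = 0.00817), but 0.06 with median scaling, so that its direction is not fixed; its second probe was undetected on all 8 arrays. Fut4 was at -0.19 (adjusted p = 0.0762), and at 0.16 with median scaling, and Fut1, of the H antigen, was at -0.32 (adjusted p = 0.0825), and at 0.02 with median scaling. Across all families, 44 detected members were uncalled, their largest fold was 1.75, and in 35 of them the 95% interval lay within 1.8-fold on both sides.

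The array names were old, and 18 more probes belong to these families by the current gene table. Of these, 2 were called, both named for that reason. Chst13, a chondroitin 4-O-sulfotransferase, had signals of 7.72, 6.93, 7.48 and 7.37 in the secretory stage and 4.55, 4.79, 4.75 and 5.24 in the maturation stage, where it was detected on 1 array. The stages were far apart, with a log2 fold change of -2.54 (SE 0.184, adjusted p = 6.51e-06 from limma). B4galnt3, which makes the LacdiNAc group, was undetected in the secretory stage and had a lower bound of 1.60-fold for its rise (adjusted p = 2.09e-04). Its call rests on the fitted 1.97-fold over values at the background, since the bound is below 1.8-fold. The polymerase subunit Ext1 was at 0.50 (adjusted p = 0.00438), and Chst15, which makes disulfated chondroitin, at 0.64 (adjusted p = 0.00237). Neither passed 1.8-fold. With the current symbols, 109 probes were members and 6 were called in each direction, B4galnt3 counted by its fitted fold.

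The genes that supply or take apart the same chains were 143 of 167 listed, read by 152 probes. Of these genes, 15 were called higher and 13 lower in the maturation stage, and the median log2 fold change of their probes was -0.11. The calls are 18.4% of these probes, and 21.9% of the 128 detected on all arrays of a stage, against 7.75% and 16.5% for the whole array. The lists were chosen with earlier results of these data known, so the higher shares are no test of them. For PAPS, the sulfate donor of every sulfotransferase, Papss2, a PAPS synthase, had signals of 10.69, 10.47, 10.46 and 10.66 in the secretory stage and 7.999, 8.36, 8.18 and 7.98 in the maturation stage. The stages lay far apart, with a log2 fold change of -2.44 (SE 0.0982, adjusted p = 1.90e-07 from limma). The 2 probes of Papss1, the other PAPS synthase, were at -0.72 and -0.45 and uncalled. Slc26a1, a sulfate anion exchanger, was undetected in the secretory stage and rose at least 30.5-fold (adjusted p = 3.07e-08). Sumf1, which activates sulfatases, rose by 1.18. The list of sulfate activation and supply held 2 calls up and 1 down among 10 genes, with Sumf1 counted in although sulfatases remove sulfate. Apart from Sumf1, the calls were Slc26a1 up and Papss2 down.

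**Figure D4:**
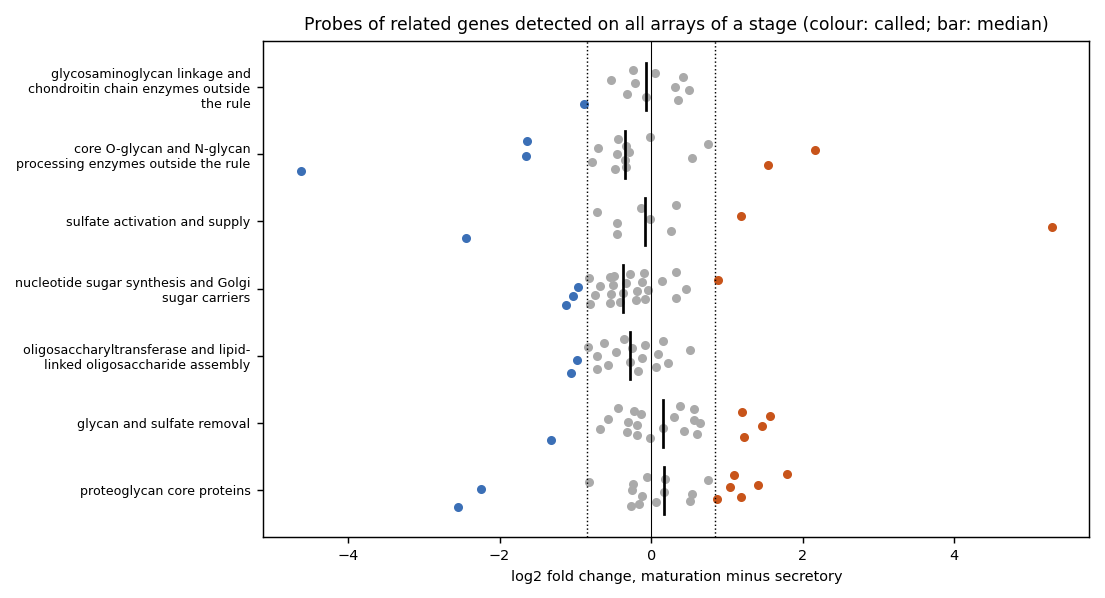
Log2 fold change (maturation minus secretory) of the 128 probes of related genes detected on all arrays of at least 1 stage, by list, 1 point a probe, with called probes in colour (orange higher, blue lower), a black bar at the median of each list and dotted lines at 1.8-fold. The points at the far ends are Gal3st4 at -4.62 and Slc26a1, plotted at its fitted 5.29 although its fold is a lower bound.

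Gal3st4, which sulfates galactose at position 3 on O-glycans and is not covered by the naming rule, was among 24 genes of O-glycan cores and N-glycan processing, of which 2 were called higher and 3 lower. Its signals were 12.95, 13.003, 12.85 and 12.98 in the secretory stage and 9.70, 7.35, 7.49 and 8.74 in the maturation stage. As for Chst1, maturation replicates 1 and 4 lay above the other two, and the log2 fold change was -4.62 (SE 0.452, adjusted p = 4.65e-05 from limma). The trimming mannosidases Man1a1 and Man1a2 moved apart, at 2.16 and -1.64. Mfng, a Fringe enzyme that extends O-fucose on Notch, fell by 1.65. Ugcg, which makes the glucosylceramide that B4galt6 extends, rose by 1.54; it was named after its value was seen.

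The enzymes that make sugar nucleotides and the Golgi carriers held 1 call up and 3 down among 27 genes, with a median of -0.33. Mpi and Gmppb of mannose activation fell by 1.13 and 0.97, while Pmm1 rose by 0.88, a call lost with an offset of 50 (0.84) and without background correction (0.79). In N-glycan precursor assembly and transfer, 2 of 20 genes were called, both lower, Ddost of the oligosaccharyltransferase (-1.06) and the mannosyltransferase Alg2 (-0.97). With median scaling 7 of the related genes were called lower instead of 13, and Mpi (-0.80), Gmppb (-0.65), Ddost (-0.81) and Alg2 (-0.63) were among those that no longer passed. Gmppb and Alg2 also lost the call with an offset of 50 (-0.79 and -0.84) and without background correction (-0.60 and -0.69), Gmppb without maturation replicate 1 (-0.77) and Alg2 without secretory replicate 2 (-0.85).

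Of 24 genes of glycan and sulfate removal, 4 were called higher and 1 lower. The sialidase Neu1 had signals of 5.78, 6.17, 5.94 and 6.10 in the secretory and 7.54, 7.56, 7.62 and 7.55 in the maturation stage, a rise of 1.57 (SE 0.0859, adjusted p = 1.07e-06 from limma). The sialidase Neu3 rose by 1.20, the fucosidase Fuca2 by 1.47 and the heparan 6-O-endosulfatase Sulf2 by 1.22, and the lysosomal mannosidase Man2b1 fell by 1.32.

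Among the 24 proteoglycan core proteins, which carry the glycosaminoglycan chains, 6 were called higher and 2 lower. The glypican Gpc3 fell by 2.54 and Cspg5 changed by -2.25, while Fmod, a keratan sulfate proteoglycan, rose by 1.79 and Cspg4 by 1.42. Without background correction Cspg4 was at 0.77 and not called, and with the probes of a symbol averaged Cspg5 was at -1.25. Fmod varied widely in the maturation stage, at 10.14, 8.58, 10.65 and 9.61, with replicate 2 near the highest secretory value of 8.30. Of the 14 linkage and chondroitin chain enzymes found, only Chsy1, a chondroitin synthase, was called (-0.88), and it lost the call without secretory replicate 2 (-0.82) or 3 (-0.83), and in the same 5 of 9 processing alternatives as B3gnt7, where it lay between -0.83 (cyclic loess) and -0.39 (no background correction).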

How the data were processed

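The 8 arrays carried total RNA of enamel organs of both stages. For each probe and array, the deposited table holds a mean bead intensity, which the authors neither corrected for background nor normalized, and a detection p-value. It also holds the number of beads (a count) and the bead-level standard error of the signal as deposited by the authors, neither of which was tested. The summarising software and the genome build are not given in the sources used here.

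R 4.3.3 with limma 3.58.1 was used. Background was modelled by neqc from negative controls that it infers from the detection p-values; an offset of 16 was added, quantiles were equalized and log2 values taken. lmFit and eBayes were run over all 22523 probes without pairing, since the methods name a Student test and no pairing. A probe undetected on all arrays of a stage was given a lower bound of its fold. The members and lists were chosen with earlier results of these data known. The probes named are those called, in each family the pair of uncalled members detected on all arrays with the narrowest intervals, uncalled members with an adjusted p below 0.05 and a log2 fold change of at least 0.65 in size, members detected in one stage only, up to 4 called genes of each related list, and stage markers. Other probes illustrate a family and were chosen with their values in view. Current symbols came from a GRCr8 gene table by gene ID, which matched 90 of the member probes. Promoter windows were read with Python 3.11.15. The fit was tested on simulated data.

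Since both stages came from each rat, replicate numbers pair the samples: over 11233 probes, deviations from the stage means correlated within rats 1 to 4 at 0.195, 0.129, 0.219 and 0.234, and between different rats at means of -0.0755 to -0.0416. The alternatives were other background corrections, a larger offset, cyclic loess, median scaling, a detection filter, the rat as a replicate block, the Student test that the methods name, probes averaged by symbol, a stricter adjusted p, bounds in place of fitted folds, current symbols, and each array left out. Lists of secretory and maturation ameloblast, macrophage and leukocyte, erythroid, osteoclast, odontoblast, mesenchyme, endothelium and muscle markers were read from the same fit. The miRNA measurements of the study were not analysed here. A called gene of the related lists is not reported here.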

Additional observations from a re-analysis of the deposited data

Results flagged for a closer look

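In groups of 4 arrays, 94 sets of values of named genes were examined for a value standing apart by Dixon's test at 5%, and 4 were past its critical value, where 4.7 are given by chance. St3gal6 stood at 9.49 in secretory replicate 4, against 9.01 to 9.05 in the other secretory arrays. Mfng stood at 9.08 in maturation replicate 3, against 8.85 to 8.89. Mpi stood at 10.36 in secretory replicate 1, against 10.17 to 10.20, and Gmppb at 6.23 in maturation replicate 1, below the 6.96 to 7.06 of the rest. The calls of St3gal6, Mfng and Mpi held with each array left out, and Gmppb was no longer called without maturation replicate 1 (-0.77).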

How the results depend on the processing

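Of 48 named genes and probes, 30 kept their call or lack of one and their direction in every setting, and 24 of them also their side of the adjusted p threshold. The number of members called higher was 5 and lay between 4 and 7 under the alternatives and at 5 with each array left out. The number called lower was 5 and lay between 4 (without maturation replicate 1) and 7 (without secretory replicate 1) with an array left out; it was 3 without background correction and 3 with median scaling. Median scaling thus gave 7 members higher and 3 lower in place of 5 and 5, moved the share of higher calls among all probes from 59.3% to 77.6%, and left 7 related genes called lower in place of 13. It also reversed B4galt7 (0.16), Fut4 (0.16), Fut8 (0.060) and Ndst2 (0.19), none of them called. With an array left out, 14 to 15 related genes were called higher and 11 to 15 lower. Without background correction 927 probes were called in all, against 1745. The rat as a replicate block left 5 members called in each direction and changed no call of a member; on p alone, 33 members passed as before, but Chst11, Galnt7 and Mgat4c no longer did and Galnt5, Galnt18 and St3gal2 now did. The causes were not tested. The chip could not be used as a block, since the table names none. Signals near the background limit what can be said of the 24 members undetected on all 8 arrays, and of Galnt10 in the secretory stage.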

Other observations

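Of the other cell type lists, 1 of 9 odontoblast and osteoblast markers was called lower and 1 higher: Dspp, the dentin matrix gene, was undetected in the maturation stage and at least 34.05-fold lower there, and Ibsp, of bone and dentin matrix, rose by 1.95. In the fibroblast and dental mesenchyme list 1 of 8 genes was called, Thy1, which rose by 0.97. In the endothelium list 1 of 7 was called, Vwf, which rose by 0.88. No gene of the 7 in the erythroid and blood list was called by limma, with log2 fold changes from -1.07 to 0.15. In the skeletal muscle list 1 of 7 genes was called, Actn3, at -1.57; Ckm varied between 4.93 and 7.68 among the maturation arrays. In the secretory ameloblast list Enam and Mmp20 were called lower, of 6 genes, and in the maturation ameloblast list 4 of 5 genes were called higher.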
